A study of Mus musculus with 12 samples.

Results

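The Ikaros family of zinc-finger transcription factors was examined across CD8+ T cells that were resting, primed with antigen or primed with antigen plus costimulation. The 5 genes Ikzf1, Ikzf2, Ikzf3, Ikzf4 and Ikzf5 were taken by symbol from 55536 genes in the count table. They carry 34 of the 141862 annotated transcripts and 43 of the 115403 splicing nodes, the exon parts for which a percent-spliced-in value was deposited.

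Ikaros family proteins bind DNA through a cluster of zinc fingers near the N terminus and pair with one another through fingers at the C terminus. Forms that lack part of the DNA-binding cluster can still pair, so the balance between transcripts of one gene matters as well as its level. The genes are Ikzf1 (Ikaros), Ikzf2 (Helios), Ikzf3 (Aiolos), Ikzf4 (Eos) and Ikzf5 (Pegasus). Ikaros and Aiolos are known for their roles in lymphocyte development and in setting the response to antigen, and Helios and Eos are best known from regulatory T cells.

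All cells came from OT-I mice on a C57BL/6J background, whose transgenic T cell receptor recognises the SIINFEKL peptide of ovalbumin, and the study's methods describe these donors as Rag1- or Rag2-deficient mice of both sexes and a range of ages. In the Ag group (5 libraries) OT-I CD8+ T cells were transferred into wild-type C57BL/6J recipients that received SIINFEKL peptide with control rat IgG. In the Ag+Costim group (5 libraries) the recipients received the peptide with agonist antibodies to OX40 (CD134, clone OX-86) and 4-1BB (CD137, clone 3H3), and the Naive group (2 libraries) came from OT-I mice whose cells were not transferred. The labels give 4 days between stimulation and collection, the study's methods a slightly shorter time, and CD8+ T cells were sorted from pooled spleen and lymph node. For the sort after transfer the study's methods name CD8, the congenic marker CD45.1 and the receptor chains Vα2 and Vβ5 of the transgene. Transfer, peptide and the recipient host separate Naive from both other groups together, so their parts cannot be told apart. Because each library is a sorted population, fewer cells expressing a gene and less RNA per cell cannot be told apart either.

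The 12 libraries held 24006053 to 49294934 gene counts. The lowest total belonged to Ag 4, and the median over all libraries was 44033420, so Ag 4 gives the least precise values of its group. The labelled cell type was present in every library: the 6 CD8 T cell markers Cd3e, Cd3d, Cd3g, Cd8a, Cd8b1 and Trac together reached 9664 and 9005 CPM (counts scaled to a common library total) in Naive, 7123 to 10762 in Ag and 3976 to 5462 in Ag+Costim, with Trac the most abundant of them on average in Naive and Cd8b1 in both stimulated groups. RNA of other cells was also measured. The 6 B cell markers summed to 29.7 and 27.2 CPM in Naive, 109 to 158 in Ag and 22.8 to 59.7 in Ag+Costim. The 6 erythroid markers summed to 2069 and 149.6 CPM in Naive, 626 to 6379 in Ag, with the maximum in Ag 4, and 14.5 to 223 in Ag+Costim. The part of these markers in the results on the family was not tested.

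The level of each member was first compared across the 3 groups as gene counts scaled to CPM with edgeR's TMM factors. Ikzf1 was lower in every Ag library than in every Naive library and higher again in every Ag+Costim library. Ikzf2 and Ikzf4 were lowest in Ag+Costim, Ikzf3 was high in both stimulated groups, and Ikzf5 varied least.

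**Figure D1:**
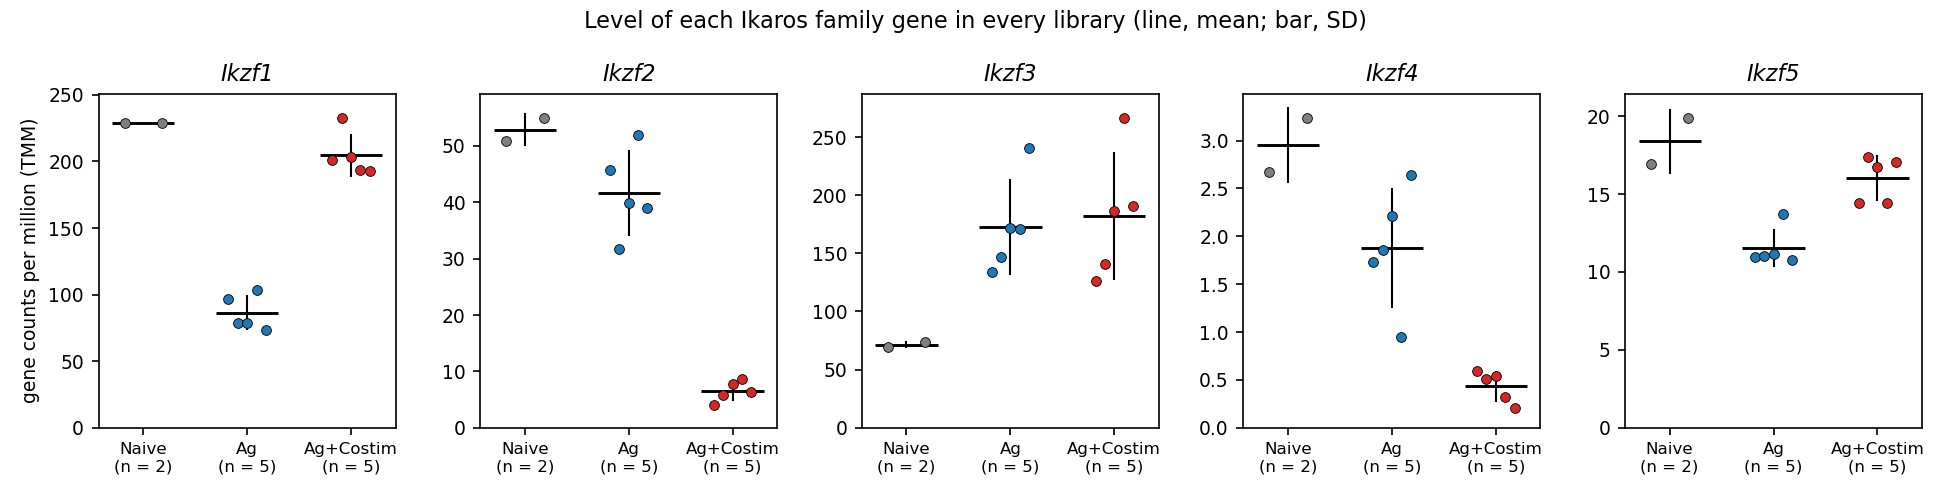
Gene CPM (TMM-scaled, linear axis from 0, a separate scale for each gene) of Ikzf1 to Ikzf5 in the 2 Naive, 5 Ag and 5 Ag+Costim libraries, with points for libraries, horizontal lines for means and vertical bars for SD. For Ikzf1 the 5 Ag points, from 73.4 to 104 CPM, lie below all points of the other groups, and for Ikzf2 the 5 Ag+Costim points, from 4.10 to 8.61 CPM, lie below all others.

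Ikzf1 (ENSMUSG00000018654.17, chr11:11685003-11772926 on the plus strand, mm10) codes for Ikaros, a factor required for lymphoid development. Its level was 229 and 229 CPM in the 2 Naive libraries, 96.7, 78.9, 79.0, 104 and 73.4 CPM in the 5 Ag libraries and 201, 232, 203, 194 and 192 CPM in the 5 Ag+Costim libraries. The Ag libraries did not overlap with either other group, whereas Ag+Costim 2 lay above both Naive libraries and the rest of its group below them. Means were 229 ± 0.092 CPM (SD, n = 2) in Naive, 86.4 ± 13.1 (SD, n = 5) in Ag and 204 ± 16.3 (SD, n = 5) in Ag+Costim. With edgeR's quasi-likelihood test Ikzf1 fell by 1.41 on the log2 scale in Ag against Naive (SE 0.13, adjusted p = 1.8e-06), which is 2.65-fold. It rose by 1.24 in Ag+Costim against Ag (SE 0.10, adjusted p = 4.2e-07), which is 2.37-fold, and the log2 change stayed between 1.19 and 1.32 when any single library was left out. Between Ag+Costim and Naive the log2 difference was -0.16 (95% interval -0.45 to 0.12, adjusted p = 0.32). On the deposited FPKM values, tested with limma, the same difference was -0.54 on the log2(FPKM + 1) scale with an adjusted p of 0.0055, so this call depends on the quantity used.

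Ikzf2 (ENSMUSG00000025997.13, chr1:69531214-69687245, minus strand) codes for Helios. Its level was 50.8 and 54.9 CPM in Naive, 45.8, 31.7, 39.9, 52.0 and 38.9 CPM in Ag and 4.10, 5.87, 7.76, 8.61 and 6.34 CPM in Ag+Costim. All 5 Ag+Costim libraries lay far below the other 7, while Ag and Naive came close to each other, with Ag 4 inside the Naive range. Ikzf2 fell by 2.67 on the log2 scale in Ag+Costim against Ag (SE 0.19, adjusted p = 1.3e-07, edgeR), a 6.36-fold lower level. Leaving out any single library, the low-depth Ag 4 included, gave -2.77 to -2.54, and 3.50% of the 18817 genes tested had a lower log2 fold change. Against Naive it fell by 3.01 (SE 0.22) in Ag+Costim, and in Ag the change of -0.34 (SE 0.23, adjusted p = 0.24) did not pass. Retained-intron transcripts, taken up below, held a mean of 61.9% of Ikzf2 counts in Naive, 62.7% in Ag and 54.8% in Ag+Costim. The gene level and the family share of Ikzf2 include them.

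Ikzf4 (ENSMUSG00000002578.17, chr10:128630843-128645991, minus strand), which codes for Eos, was the least abundant member. Its level was 2.68 and 3.23 CPM in Naive, 1.73, 1.86, 2.21, 0.949 and 2.65 CPM in Ag and 0.593, 0.510, 0.536, 0.326 and 0.208 CPM in Ag+Costim. The Ag+Costim libraries were again all below the others. Ikzf4 fell by 2.11 in Ag+Costim against Ag (SE 0.35, adjusted p = 1.7e-04, edgeR), or 4.31-fold, and by 2.75 against Naive (SE 0.41), whereas in Ag against Naive the change of -0.65 (SE 0.41, adjusted p = 0.22) did not pass. On log2(FPKM + 1), tested with limma, the change in Ag against Naive was -0.27 and passed (adjusted p = 0.036), so this call depends on the quantity used. Foxp3, the defining factor of regulatory T cells, averaged 0.187 CPM in Naive, 0.406 in Ag and 0.136 in Ag+Costim, and Cd4 0.165, 0.981 and 1.12 CPM. Both genes were low in all groups, as was Ikzf4 itself at a mean of 0.43 CPM in Ag+Costim. Neither passed edgeR's test between Ag+Costim and Ag (adjusted p = 0.32 for Foxp3 and 0.88 for Cd4), and at such levels that test says little. The part of regulatory T cells in the level of Ikzf4 was not tested. The other 2 genes of that marker list, which activated CD8+ T cells also express, reached higher levels. Ctla4 averaged 1.0 CPM in Naive, 142 in Ag and 42.4 in Ag+Costim, and Il2ra 3.47, 2.38 and 69.9 CPM.

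Ikzf3 (ENSMUSG00000018168.8, chr11:98464902-98546031, minus strand) codes for Aiolos, the closest relative of Ikaros. Its level was 69.3 and 73.7 CPM in Naive, 134, 147, 172, 171 and 241 CPM in Ag and 126, 141, 186, 266 and 191 CPM in Ag+Costim. Every stimulated library exceeded both Naive libraries, and the Ag and Ag+Costim libraries overlapped over most of their range. Ikzf3 rose by 1.27 in Ag against Naive (SE 0.28, adjusted p = 0.0021, edgeR), or 2.42-fold, and by 1.35 in Ag+Costim against Naive (SE 0.28, adjusted p = 0.0012). The difference between Ag+Costim and Ag was 0.07 (95% interval -0.35 to 0.50, adjusted p = 0.78), and with upper-quartile scaling it was -0.12, so no direction can be given for it.

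Ikzf5 (ENSMUSG00000040167.16, chr7:131388652-131410521, minus strand) codes for Pegasus, the most divergent member. Its level was 16.9 and 19.9 CPM in Naive, 10.99, 11.03, 11.2, 13.7 and 10.8 CPM in Ag and 14.4, 17.4, 16.7, 14.4 and 17.1 CPM in Ag+Costim. Each Ag library was below each library of the other groups, as for Ikzf1 but over a smaller range. Ikzf5 fell by 0.67 in Ag against Naive (SE 0.14, adjusted p = 0.0018, edgeR) and rose by 0.47 in Ag+Costim against Ag (SE 0.11, adjusted p = 0.0029), and the difference between Ag+Costim and Naive was -0.20 (SE 0.15, adjusted p = 0.27). With upper-quartile scaling the rise was 0.27 and the adjusted p 0.057. Ikzf5 overlaps Pstk on the opposite strand, and since the strand used in counting was not given in the sources used here, reads of the overlapping stretch cannot be assigned to one of them with certainty.

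No member's gene-level call in any of the 3 comparisons changed when any single library was left out. In Ag against Naive 1 member was higher and 2 were lower, where 46.7% of all genes tested passed in either direction (24.2% higher, 22.5% lower). Between Ag+Costim and Ag 2 were higher and 2 lower against a background of 53.1% (26.6% higher, 26.5% lower), and between Ag+Costim and Naive 1 was higher and 2 lower against 52.3% (26.9% higher, 25.4% lower). With such backgrounds the number of members called is no result on its own. The size of most changes was also common: in Ag+Costim against Ag 86.6% of all genes had a lower log2 fold change than Ikzf1, 69.3% than Ikzf5, 54.98% than Ikzf3 and 5.67% than Ikzf4, and in Ag against Naive 13.3% had a lower one than Ikzf1, 28.4% than Ikzf5 and 84.9% than Ikzf3. The median log2 fold change of the 5 members was -0.65 in Ag against Naive, 0.07 in Ag+Costim against Ag and -0.20 in Ag+Costim against Naive, beside 0.02, -0.05 and -0.02 over all genes tested. Of the genes called between Ag+Costim and Ag 50.1% were higher, and 39.0% with upper-quartile scaling, which moved the median of all genes from -0.05 to -0.24. Of those called between Ag and Naive 51.9% were higher, and 38.8% on log2(FPKM + 1), and the 3 comparisons share their libraries pairwise.

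**Figure D2:**
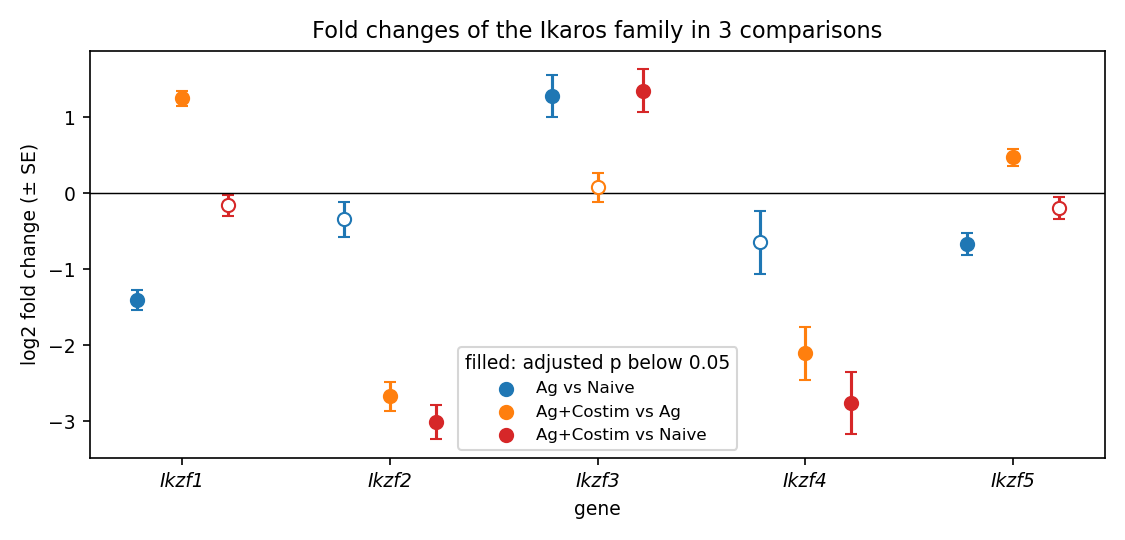
Log2 fold change (vertical axis, points with SE bars, edgeR) of each Ikaros family gene in Ag against Naive, Ag+Costim against Ag and Ag+Costim against Naive, with filled points for an adjusted p below 0.05. Ikzf1 and Ikzf5 lie below 0 in Ag against Naive and above 0 in Ag+Costim against Ag (1.24 for Ikzf1), and Ikzf2 reaches -2.67 and Ikzf4 -2.11 in Ag+Costim against Ag.

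Levels were then compared between members after division by the length of the longest transcript (CPM per kilobase), the scale on which genes of different length can be set beside each other. In Naive Ikzf1 had the highest mean level per kilobase, 44.3, ahead of Ikzf3 at 15.5, Ikzf2 at 5.70 (close to Ikzf3 on FPKM, with shares of 17.5 and 19.2%), Ikzf5 at 4.15 and Ikzf4 at 0.57. In Ag the order was Ikzf3 at 37.6, Ikzf1 at 16.7, Ikzf2 at 4.49, Ikzf5 at 2.60 and Ikzf4 at 0.37. In Ag+Costim Ikzf1 at 39.6 and Ikzf3 at 39.5 did not differ beyond their spread, followed by Ikzf5 at 3.61, Ikzf2 at 0.70 and Ikzf4 at 0.08. The family was thus led by Ikaros in Naive, by Aiolos in Ag and by both in Ag+Costim.

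Ikzf1 made up 64.1 and 62.1% of the summed level of the family in Naive, 33.8, 28.6, 25.6, 30.4 and 19.3% in Ag and 55.5, 56.0, 46.6, 37.7 and 44.8% in Ag+Costim. The Ag range lay below both others without overlap. The share rose from a mean of 27.5% ± 5.5 to 48.1% ± 7.7 (SD, n = 5 each) between Ag and Ag+Costim (two-sided exact permutation test, p = 0.00794, the smallest that 5 against 5 libraries allow, and 0.0331 after Benjamini-Hochberg adjustment over 25 share measures). The share of Ikzf2 fell from 7.32% to 0.833% and that of Ikzf4 from 0.595% to 0.105% (exact permutation p = 0.00794 and adjusted p = 0.0331 for each). Division by the longest transcript, 9278 bases for Ikzf2, gives that gene a low level, and on FPKM its mean share was 17.5% in Naive, 15.8% in Ag and 1.96% in Ag+Costim (exact permutation p = 0.00794 between the last pair). The share of Ikzf3 was 22.1% in Naive, 60.3% in Ag and 46.6% in Ag+Costim, and the last difference missed the threshold after adjustment (exact permutation p = 0.0238, adjusted p = 0.0744). On FPKM, which uses the authors' own transcript lengths, the mean Ikzf3 shares of Ag and Ag+Costim were 53.1% and 47.4% (exact permutation p = 0.238). The share of Ikzf5 was 4.26% in Ag and 4.38% in Ag+Costim (exact permutation p = 0.698). With 2 Naive libraries no comparison with Naive can go below an exact two-sided p of 0.0952. The shares of Ikzf1, Ikzf3, Ikzf4 and Ikzf5 reached it in both stimulated groups, with no overlap, and that of Ikzf2 in Ag+Costim alone.

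**Figure D3:**
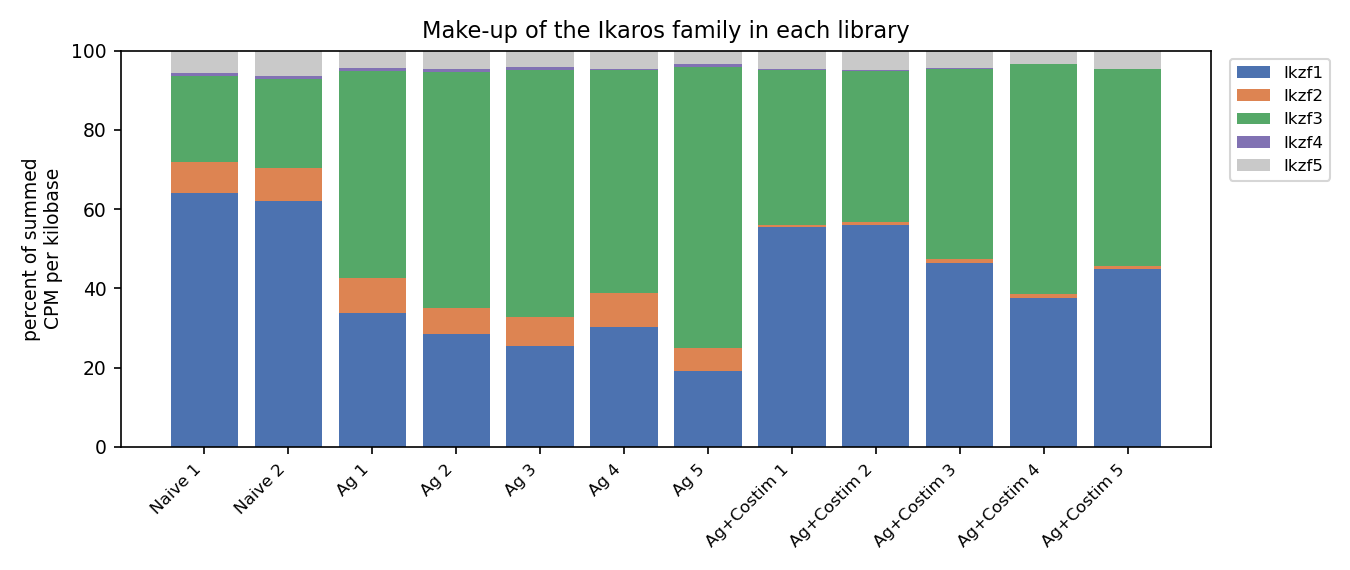
Stacked bars of the share (percent, axis 0 to 100) that each of the 5 genes contributes to the summed CPM per kilobase of the family in each of the 12 libraries. Ikzf1 makes up 64.1% and 62.1% in the Naive libraries, 19.3% to 33.8% in Ag and 37.7% to 56.0% in Ag+Costim, and Ikzf3 fills most of the difference.

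Ikzf1 has 6 annotated transcripts, which differ in 3 places shown here because the later values turn on them: whether exon 4 is joined to exon 3, whether a 60-base exon stands between them, and where the transcript ends. Exon 4 (261 bases, chr11:11748311-11748571) codes for the first DNA-binding finger, and skipping it keeps the reading frame since its length divides by 3. The junctions are those of GENCODE vM21 on mm10, with the last 15 bases of exon 3 in lower case and the first 15 bases of the exon that follows in capitals.
Exon 3 to exon 4 (Ikzf1-204), chr11:11707890-11707904 joined to chr11:11748311-11748325, plus strand: gtgatcgaggcatggCCAGTAATGTTAAAG
Exon 3 to exon 5 (Ikzf1-201, exon 4 skipped), chr11:11707890-11707904 joined to chr11:11754007-11754021, plus strand: gtgatcgaggcatggGTGAACGGCCTTTCC
Exon 3 to the 60-base exon (Ikzf1-203), chr11:11707890-11707904 joined to chr11:11740950-11740964, plus strand: gtgatcgaggcatggTTGCATATGGGGCTG

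Ikzf1-204 and Ikzf1-203 both hold exon 4, and Ikzf1-203 also holds the 60-base exon. Ikzf1-201 and Ikzf1-202 skip both, and Ikzf1-205 is annotated as a short 5′ fragment that skips exon 4. Of these, 3 share the last exon, which starts at position 11768881, and stop at successive ends within it, whereas Ikzf1-202 stops earlier, in an extension of the exon before. The last 30 bases of each are printed below, 5′ to 3′ on mm10, and none of the 4 holds the polyadenylation hexamers AATAAA or ATTAAA (searched on the transcript strand) in its last 50 bases, so no letters are in capitals.
Ikzf1-202, chr11:11761395-11761424, plus strand: tgggtgttctagacaaaaattatttgaaag
Ikzf1-201, chr11:11769769-11769798, plus strand: ggaacattcacaacatccatccttctagcc
Ikzf1-203, chr11:11772083-11772112, plus strand: gctggtaaaggagggttttgcatgacctca
Ikzf1-204, chr11:11772897-11772926, plus strand: tgtttccaatcctttctaatacattttttc
Among 58787 protein-coding transcripts of the annotation 40.6% hold AATAAA, 11.9% hold ATTAAA and 50.2% hold either in that window.

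By transcript counts, 23 of the 34 family transcripts had any count and 20 passed the filter on low counts, 6 of Ikzf1, 5 of Ikzf2, 4 of Ikzf3, 1 of Ikzf4 and 4 of Ikzf5. Between Ag+Costim and Ag 3 of the 20 rose and 5 fell (6 and 5 with DESeq2), where 21.2% of all 50792 transcripts tested passed (10.7% higher, 10.4% lower). In Ag against Naive 2 rose and 2 fell (3 and 3 with DESeq2; background 16.2%, of which 9.13% higher and 7.05% lower), and in Ag+Costim against Naive 2 rose and 5 fell (background 21.8%, of which 11.5% higher and 10.2% lower). Without Naive 1 these counts in edgeR were 1 higher and 1 lower in Ag and 1 and 4 in Ag+Costim, and without Naive 2, where 3368 of 56093 transcripts were called in Ag against Naive, 1 was higher in Ag with no other call and 2 were higher and 3 lower in Ag+Costim. The transcripts that rose between Ag and Ag+Costim belonged to Ikzf1 and Ikzf5, and those that fell to Ikzf1, Ikzf2 and Ikzf4.

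Ikzf1-204, the longest and most abundant Ikzf1 transcript, was at 148 and 132 CPM in Naive, 78.3, 66.9, 47.0, 87.0 and 64.6 CPM in Ag and 139.8, 229, 141, 137 and 167 CPM in Ag+Costim. It followed the gene: it fell by 1.03 in Ag against Naive (adjusted p = 0.014, edgeR) and rose by 1.24 in Ag+Costim against Ag (adjusted p = 8.9e-04). Ikzf1-205 moved the same way, by -1.58 (adjusted p = 0.0049) and 1.17 (adjusted p = 0.0058). With 1 Naive library left, Ikzf1-204 in Ag against Naive missed the threshold both without Naive 1 (-0.90, adjusted p = 0.126, edgeR) and without Naive 2 (-1.07, adjusted p = 0.0819), and Ikzf1-205 without Naive 2 (-1.55, adjusted p = 0.0515).

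Ikzf1-202, the form that skips exon 4 and ends early, went against the gene. It was at 5.66 and 6.46 CPM in Naive, 9.26, 6.23, 4.01, 4.28 and 4.15 CPM in Ag and 1.27, 2.0, 1.31, 0.764 and 1.90 CPM in Ag+Costim. All 5 Ag+Costim libraries were below all others, while Ag and Naive overlapped. It fell by 1.95 in Ag+Costim against Ag (adjusted p = 0.0023, edgeR) and by 2.06 against Naive (adjusted p = 0.0050, and 0.0538 at -1.91 without Naive 2), while the gene as a whole rose between Ag and Ag+Costim.

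Ikzf1-203, which ends at the middle of the 3 ends, was at 45.2 and 55.5 CPM in Naive, 6.91, 3.22, 28.1, 4.50 and 2.49 CPM in Ag and 62.4, 7.12, 68.6, 53.2 and 24.8 CPM in Ag+Costim. Libraries of 1 group differed widely: Ag 3 was above the rest of Ag, and Ag+Costim 2 was the lowest of its group, just above the other Ag libraries. The log2 change of 2.25 between Ag and Ag+Costim did not pass (adjusted p = 0.061, edgeR), although without Ag 3 it was 3.33 with an adjusted p of 0.0055 and without Ag+Costim 2 it was 2.53 with 0.0350. Without Ag 3 the change against Naive, -3.55, passed too (adjusted p = 0.0097). The changes between Ag and Ag+Costim of 1.57 for Ikzf1-201 (adjusted p = 0.058) and 1.07 for Ikzf1-206 (adjusted p = 0.0503) also missed the threshold with all libraries. Ikzf1-201 passed without Ag 4 (1.31, adjusted p = 0.0475, edgeR) and without Ag+Costim 3 (1.78, 0.0413), and Ikzf1-206 without Ag 2 (1.21, 0.0477) and without Ag+Costim 1 (1.19, 0.0456). With DESeq2 and all libraries the adjusted p was 0.0124 for Ikzf1-201, 0.0134 for Ikzf1-203 and 0.00679 for Ikzf1-206, so for these 3 transcripts the call depends on the tool.

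**Figure D4:**
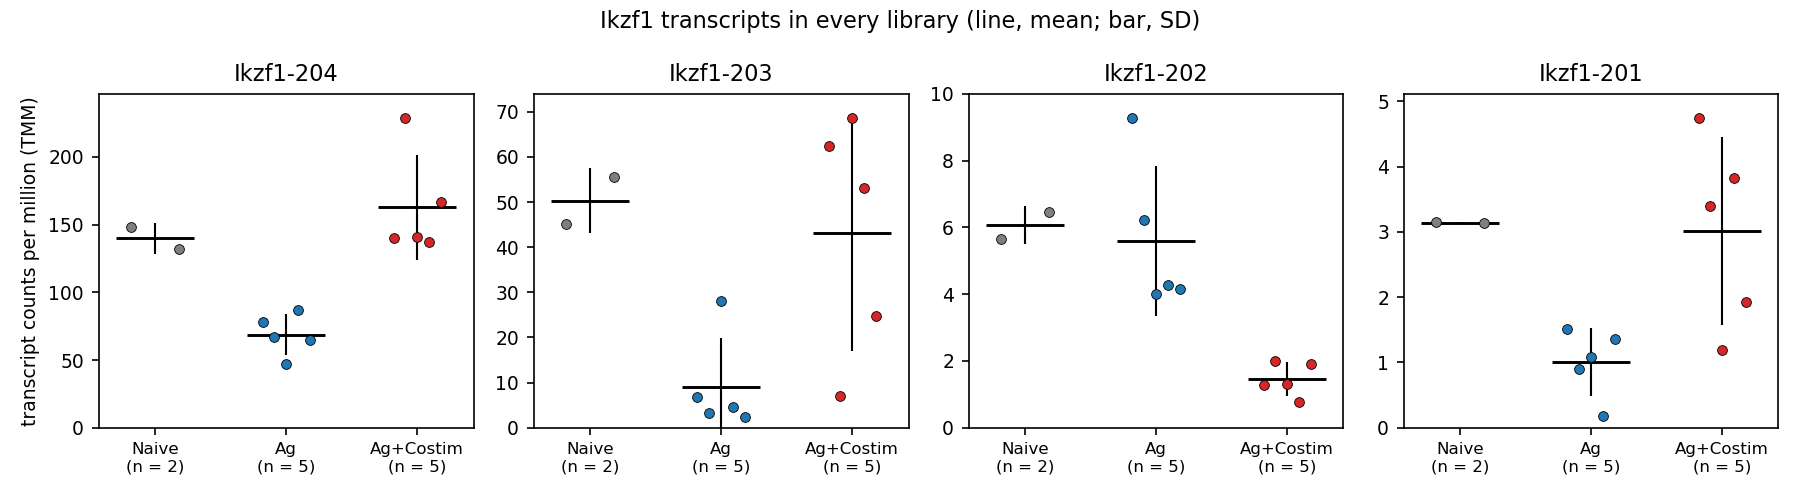
Transcript CPM (TMM-scaled, linear axes from 0, a separate scale for each transcript) of Ikzf1-204, Ikzf1-203, Ikzf1-202 and Ikzf1-201 in the Naive (n = 2), Ag (n = 5) and Ag+Costim (n = 5) libraries, with lines for means and bars for SD. Ikzf1-202 is lowest in Ag+Costim (0.76 to 2.0) and overlaps between Ag (4.01 to 9.26) and Naive, and the Ikzf1-203 points of Ag and Ag+Costim spread over most of the axis.

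To ask how the transcripts of Ikzf1 shifted among themselves, each was expressed as a share of the gene's counts in the same library. The share of Ikzf1-202 was 2.73 and 3.20% in Naive, 9.46, 7.85, 4.90, 4.39 and 5.57% in Ag and 0.602, 0.811, 0.602, 0.385 and 0.958% in Ag+Costim. The 3 groups did not overlap, with Ag highest and Ag+Costim lowest. The mean fell from 6.43% ± 2.15 to 0.671% ± 0.220 (SD, n = 5 each) between Ag and Ag+Costim (exact permutation p = 0.00794, adjusted p = 0.0331). A long transcript yields more counts per molecule than a short one, and Ikzf1-202 has 911 bases against 5163 for Ikzf1-204. With counts divided by length its share was 22.2% in Ag and 2.88% in Ag+Costim, a fall of 19.3 points in place of 5.76 (exact permutation p = 0.00794, adjusted p = 0.0283), and the groups still did not overlap.

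The share of Ikzf1 counts in transcripts that reach the most distal last exon was 95.0 and 94.3% in Naive, 88.5, 89.5, 93.2, 94.0 and 91.9% in Ag and 97.9, 97.1, 97.0, 97.8 and 97.4% in Ag+Costim, and the groups again did not overlap. Its mean rose from 91.4% ± 2.33 to 97.4% ± 0.416 (SD, n = 5 each; exact permutation p = 0.00794, adjusted p = 0.0331), and the difference of 6.03 percentage points stayed between 5.32 and 6.67 when any single library was left out. Per length the means were 59.3% in Ag and 77.6% in Ag+Costim, a difference of 18.3 points (exact permutation p = 0.00794), and Ag (52.9 to 67.1%) overlapped with Naive (65.9 and 69.4%). The share that includes exon 4, measured over the transcripts that span it, was 93.7 and 93.2% in Naive, 87.4, 89.0, 92.4, 94.0 and 90.6% in Ag and 96.0, 96.2, 97.0, 96.3 and 96.8% in Ag+Costim. All Ag+Costim libraries were above all others, and Ag and Naive overlapped. The mean rose from 90.7% in Ag to 96.4% in Ag+Costim (exact permutation p = 0.00794, adjusted p = 0.0331), and per length from 61.0% to 79.4%, or by 18.4 points in place of 5.77. Direction and call were thus the same on both scales, while the level and the size of each change depend on the scale. These 3 shares are built from the same counts of Ikzf1-202 in part, so they are not separate observations.

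Inclusion of the 60-base exon was 21.9 and 27.6% in Naive, 7.08, 4.08, 34.6, 4.63 and 3.36% in Ag and 29.6, 2.90, 31.8, 26.9 and 12.5% in Ag+Costim. Ag 3 stood above the rest of Ag and Ag+Costim 2 below the rest of its group, and the means of 10.7% and 20.7% were not distinguishable (exact permutation p = 0.278). The difference of 9.99 points became 15.9 without Ag 3 (exact permutation p = 0.0794) and lay between 7.23 and 14.4 without any other single library. A test of unequal change among the transcripts of a gene (edgeR's diffSpliceDGE) gave Ikzf1 an adjusted p of 0.0019 in Ag+Costim against Ag, and 0.0264 when the transcript tests were combined by Simes' method, where 23.2% of 9745 genes passed the former. Because this test called too many genes on simulated counts without changes, the statements on Ikzf1 rest on the exact tests of shares.

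The 3′ ends were also read from the deposited percent-spliced-in values (Psi) of Whippet, which gives the share of a gene's RNA that uses a node, with 1 value for each of Ag and Ag+Costim, no replicates and hence no test. The nodes of type TE (tandem end) split the last exon at its annotated ends. For Ikzf1 the first of them (chr11:11768881-11769798, up to the end of Ikzf1-201) went from 0.0628% in Ag to 9.95% in Ag+Costim. The second (chr11:11769799-11772112, up to the end of Ikzf1-203) went from 0.0636% to 61.7%. The third and most distal (chr11:11772113-11772926, up to the end of Ikzf1-204) went from 99.9% to 28.4%. By Psi nearly all Ikzf1 RNA of the last exon ended at the most distal end in Ag, and the middle end was the most used in Ag+Costim. Of all 115403 nodes 86 had a larger difference than the most distal Ikzf1 end, and of the 12351 TE nodes 38 did.

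The transcript counts of the single libraries bear on the same ends only in part, since the middle end is annotated for Ikzf1-203 alone, which also holds the 60-base exon. Psi put that exon at 3.50% in Ag+Costim and the middle end at 61.7%, so Ikzf1-203 does not stand for most RNA that Psi places there, and the count shares of the 60-base exon and of the middle end rest on this 1 transcript. Among the 3 transcripts of the last exon Ikzf1-204 took 75.4 and 69.3% of counts in Naive, 90.3, 94.2, 61.7, 94.9 and 94.4% in Ag and 67.6, 95.6, 66.9, 70.6 and 86.2% in Ag+Costim. In 4 of 5 Ag libraries the most distal end took over 90% of counts and in Ag 3 it did not, and the 5 Ag+Costim libraries spread from near Ag 3 to above the rest of Ag. The means of 87.1% and 77.4% were not distinguishable (exact permutation p = 0.349), and without Ag 3 the difference widened to -16.1 percentage points (exact permutation p = 0.0794). The Naive libraries, for which no Psi value was used here, lay within the Ag+Costim range.

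**Figure D5:**
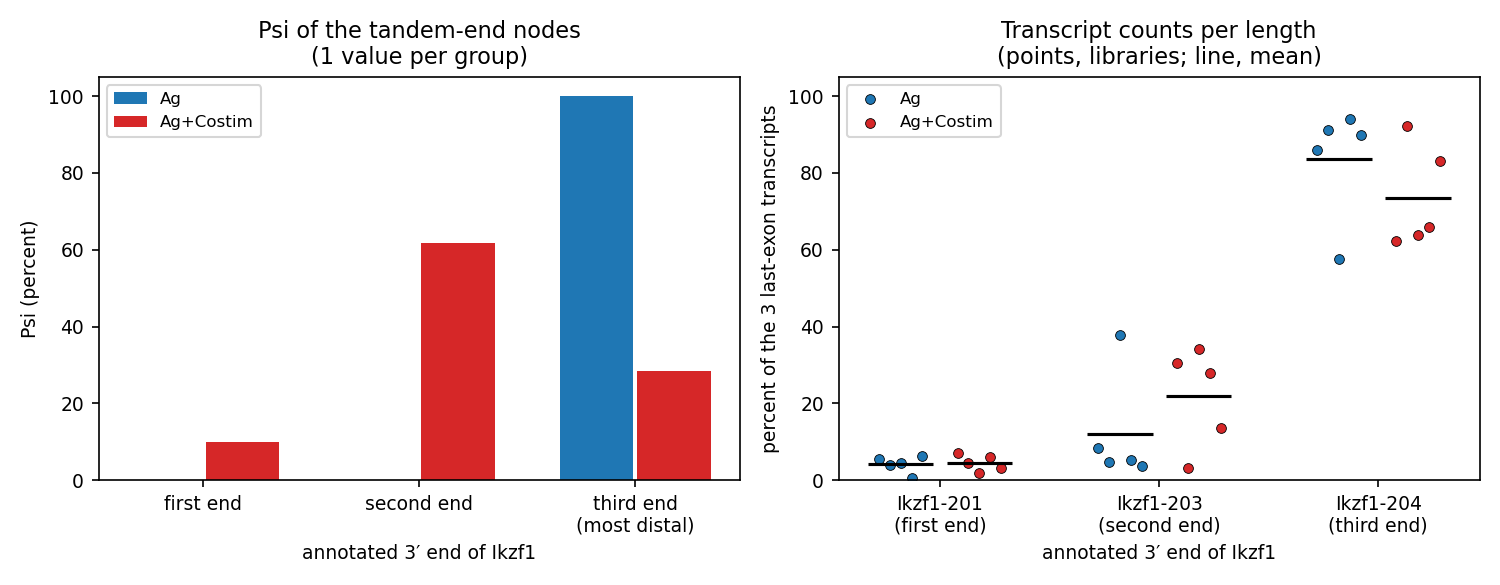
Left, Psi in percent (1 value per group, bars from 0) of the 3 tandem ends of Ikzf1 in Ag and Ag+Costim; right, the share of counts per length that Ikzf1-201, Ikzf1-203 and Ikzf1-204 take among themselves, with a point for each of 5 Ag and 5 Ag+Costim libraries and a line for the mean. The Psi bars of the most distal end go from 99.9% to 28.4%, while the points of the same end overlap between the groups.

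Of the other Ikzf1 nodes 1 differed by more than 5 percentage points of Psi, the exon before the last one (chr11:11761219-11761353), which went from 98.5% to 93.1%. Exon 4 went from 69.5% to 72.9%, beside means per length of 61.0% and 79.4% from the transcript counts. The Psi change of 3.42 points stayed below 5, so Psi did not show a rise of the size seen per length. The 60-base exon (chr11:11740950-11741009) went from 2.36% to 3.50%, beside means per length of 8.02% and 18.3% from the transcript counts. The 4 transcription start nodes changed by at most 1.56 percentage points in size.

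Over the family 11 of 43 nodes differed by more than 5 percentage points of Psi, 5 upward and 6 downward in Ag+Costim, where 19.1% of all nodes did. The tandem ends held most of them, with 7 of 11 TE nodes past that size against 44.7% of all TE nodes, followed by 3 of 21 core exons (12.9% of all) and 1 of 2 alternative donors (33.9% of all). None of the 7 start nodes was past it (39.7% of all). Read against these backgrounds, the family as a whole was not set apart, and 2 nodes, both tandem ends of Ikzf1, were past 10 percentage points (7.39% of all nodes). Among genes with at least 10 CPM in both groups 5 of 29 member nodes were past 5 points (15.2% of all) and 2 past 10 (5.57%).

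In Ikzf2 the most distal end (chr1:69531214-69538036) went from 98.7% to 93.3% and the most proximal (chr1:69538768-69539492) from 1.26% to 6.67%. The core exon at chr1:69683210-69683314 went from 97.0% to 87.1%, and the alternative donor at chr1:69577781-69577858 from 53.1% to 46.0%. Ikzf4 moved the other way at its ends, the proximal one (chr10:128632415-128632896) from 77.1% to 70.2% and the distal one (chr10:128630843-128632414) from 22.7% to 28.6%. Ikzf4 averaged 0.43 CPM in Ag+Costim, so little RNA stood behind its values there. The transcript counts gave another picture of its ends, since Ikzf4-203, which ends at the proximal node, had 0 counts and all Ikzf4 counts belonged to Ikzf4-201, which ends at the distal one. In Ikzf5 the core exon at chr7:131393755-131393937 went from 90.6% to 96.7%, its distal end (chr7:131388652-131390367) from 81.7% to 78.7%. No Ikzf3 node was past 5 percentage points, and none of its 6 nodes was a tandem end.

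Summed over its tandem ends, weighting each end by its Psi, the mean 3′ end of Ikzf1 shifted by -811 bases from Ag to Ag+Costim, a negative shift being toward the start of the last exon, and that of Ikzf2 by -564 bases. The shift of Ikzf5 was -50.9 bases and that of Ikzf4 97.3 bases, toward the distal end. The transcript counts of the single libraries did not separate the groups for Ikzf2: among the transcripts of its last exon the most distal end took 93.6% of counts in Ag (91.4 to 94.9%) and 88.5% in Ag+Costim (68.7 to 100%, lowest in Ag+Costim 2), with overlap (exact permutation p = 0.5, adjusted p = 0.625). Ikzf2-204, Ikzf2-208 and Ikzf2-209, which end at its most proximal node, had 0 counts in all libraries. For Ikzf5 the same means were 94.4% and 92.1% (exact permutation p = 0.421). By Psi, ranked in bases from the most shortened of 4770 genes with at least 2 tandem ends, Ikzf1 was at place 81 and Ikzf2 at place 130. Over these 4770 genes the median shift was -0.025 bases and 54.6% of genes were shorter in Ag+Costim. A rank in bases depends on the distance between a gene's ends, 3128 bases for Ikzf1 and 7554 for Ikzf2. In percent of that distance the shift was -25.9 for Ikzf1, -7.47 for Ikzf2, -2.97 for Ikzf5 and 6.19 for Ikzf4. Ikzf2 averaged 6.54 CPM in Ag+Costim, below the 10 CPM used for the background above, so its Psi there rests on little RNA.

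Of the 28 annotated transcripts of the other members 7 hold AATAAA or ATTAAA in their last 50 bases and 21, like the 6 of Ikzf1, hold neither. Shown are 5 of these 7, with at least 1 for each other member, and the end of Ikzf2-205, which the values below turn on. The hexamer AATAAA or ATTAAA and runs of A are in capitals, in the last 30 bases on mm10, except for Ikzf2-201, whose window ends 2 bases before its end.
Ikzf2-201, chr1:69531216-69531245, minus strand: ataaAATAAActtctgacagaaattatttg
Ikzf3-201, chr11:98464902-98464931, minus strand: cagtaATTAAAacattcctcctcaaacaca
Ikzf4-201, chr10:128630843-128630872, minus strand: gtctgttataAATAAAcacgagtaatttaa
Ikzf5-201, chr7:131388652-131388681, minus strand: aatgtattAATAAAaagtaacactttctaa
Ikzf5-202, chr7:131390368-131390397, minus strand: gcctggcaaaacAATAAAacattgtcactt
Ikzf2-205, chr1:69681559-69681588, minus strand: accagaaaattagcAAAAAAAAAAAAAAAA
A match of these letters is a description and not a mapped cleavage site.

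Ikzf2-205, a retained-intron transcript that ends in a genomic run of 16 A, held more counts than Ikzf2-201, the full-length form, in all libraries but Ag+Costim 4. It was at 26.0 and 26.6 CPM in Naive, 22.1, 17.0, 21.4, 24.2 and 15.1 CPM in Ag and 2.32, 2.14, 4.10, 4.01 and 3.06 CPM in Ag+Costim. A run of at least 10 A lies in the last 30 bases of 0.974% of the 141722 transcripts with a sequence, and whether priming within such runs bears on these counts was not tested. Ikzf2-205 fell by 2.67 in Ag+Costim against Ag, Ikzf2-201 by 2.37 and Ikzf2-203, which ends in the same run, by 3.36 (adjusted p = 0.033, edgeR). The Ikzf2-203 call was lost, with adjusted p values of 0.0541 to 0.0716 and changes of -3.35 to -3.12, on leaving out any of the 6 libraries Ag 1, Ag 3, Ag 5, Ag+Costim 3, Ag+Costim 4 and Ag+Costim 5. The 2 retained-intron transcripts took 62.7% of Ikzf2 counts in Ag and 54.8% in Ag+Costim (exact permutation p = 0.0397, adjusted p = 0.0902), a difference of -7.85 points that missed the threshold after adjustment. Per length the shares were 85.0% and 80.7%, a difference of -4.31 points (exact permutation p = 0.0714). Per length the near complement, the share reaching the most distal last exon of Ikzf2, was 13.1% in Ag and 19.3% in Ag+Costim. The libraries did not overlap for it (exact permutation p = 0.00794, adjusted p = 0.0283), so the call depends on the measure and the scale. Ikzf4-201 alone of 8 Ikzf4 transcripts had counts and fell by 2.05 (adjusted p = 0.0037), and Ikzf5-201 rose by 0.51 (adjusted p = 0.025). The Ikzf5-201 call was lost with upper-quartile scaling (0.43, adjusted p = 0.0529) and on leaving out any of the 5 libraries Ag 1, Ag 3, Ag+Costim 2, Ag+Costim 3 and Ag+Costim 5 (0.47 to 0.50, adjusted p = 0.0529 to 0.0615). In Ag against Naive Ikzf5-201 passed with DESeq2 (-0.51, adjusted p = 0.00109) and without Ag 4 (-0.62, adjusted p = 0.0266, edgeR), but not with all libraries in edgeR. Ikzf2-202, Ikzf2-206, Ikzf3-202, Ikzf5-202, Ikzf5-204 and Ikzf5-207 passed in none of the 3 comparisons by edgeR's test, and Ikzf3-202 passed in Ag against Naive with DESeq2 (0.72, adjusted p = 0.0192).

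In Ikzf3 the change lay between Naive and the stimulated groups. Ikzf3-201, the full-length form, was at 34.5 and 38.0 CPM in Naive, 117, 128, 156, 126 and 219 CPM in Ag and 118, 132, 178, 252 and 179 CPM in Ag+Costim. It rose by 2.04 in Ag (adjusted p = 0.0023, edgeR) and by 2.24 in Ag+Costim against Naive, and the fragment Ikzf3-204 by 2.43 (adjusted p = 0.021) and 2.73. The retained-intron transcript Ikzf3-203 (4607 bases, ending at chr11:98512688) was at 24.8 and 23.3 CPM in Naive, 11.8, 15.3, 14.5, 26.6 and 18.8 CPM in Ag and 9.41, 11.9, 14.7, 15.3 and 12.1 CPM in Ag+Costim, and it fell by 0.92 in Ag+Costim against Naive (adjusted p = 0.043). The Ikzf3-203 call was lost without a filter on low counts (adjusted p = 0.0550) and on leaving out any of 9 libraries, all but Ag 1, Ag 4 and Ag+Costim 4 (-0.98 to -0.83, adjusted p = 0.0508 to 0.229), so this call lies close to the threshold while its size barely moved. The Ikzf3-204 call in Ag was lost without Naive 1 (2.03, adjusted p = 0.176) and without Naive 2 (3.10, adjusted p = 0.0723), and that in Ag+Costim without Naive 1 (2.35, adjusted p = 0.106).

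As a share of Ikzf3 counts the retained-intron transcript held 39.6 and 35.8% in Naive, 8.74, 10.3, 8.13, 16.5 and 7.67% in Ag and 7.09, 7.98, 7.36, 5.60 and 6.13% in Ag+Costim. Both Naive libraries were above all 10 stimulated ones, which is the smallest exact permutation p of 0.0952 against either group. Between Ag and Ag+Costim the means of 10.3% and 6.83% differed with an exact permutation p of 0.0159 and an adjusted p of 0.0567. Ag 4, at 16.5%, carried much of this difference, which was -3.45 points with all libraries and -1.88 points without Ag 4 (exact permutation p = 0.0317). The share reaching the most distal last exon of Ikzf3 was 57.1% in Naive, 86.4% in Ag and 90.7% in Ag+Costim, the last 2 with an exact permutation p of 0.0397 and an adjusted p of 0.0902. The usage test passed for Ikzf3 in both comparisons with Naive (adjusted p = 1.6e-04 and 1.3e-06, edgeR's F test, where 18.1% and 24.1% of genes passed), but with the transcript tests combined by Simes' method neither passed (adjusted p = 0.32 and 0.084).

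The genes whose pattern over the 12 libraries lay nearest to each member were found among 9253 genes by the root mean square difference of centred log2 CPM, where 0 is an identical pattern. Nearest to Ikzf1 were Atxn2l (0.099), Fnbp1 (0.13) and Tti2 (0.14), and nearest to Ikzf5 were Slc7a6 (0.089), Gpatch8 (0.093) and Hdgfl2 (0.095). Atxn2l, for example, averaged 120.1 CPM in Naive, 44.7 in Ag and 107 in Ag+Costim, a fall and return like that of Ikzf1. The nearest to Ikzf3 were Ctsd (0.22), H2-Q6 (0.24) and Nxpe3 (0.26). Ikzf2, with Malat1 (0.31), H2-Ke6 (0.32) and Lpar6 (0.33), and Ikzf4, with Znrf1 (0.41), Coq8a (0.44) and Etfbkmt (0.45), had no neighbour as near as those of Ikzf1 and Ikzf5. The 12 libraries fall into 3 groups, so a small difference largely says that the group means move alike. The difference also grows with the noise of low counts. Ikzf4, with group means of 0.43 to 2.95 CPM, was compared only with genes of mean log2 CPM above 3. A larger difference is therefore no sign of a pattern of its own.

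Genes that act with or on the family were summarised from lists, with the 3 called genes of each that had the largest absolute change between Ag+Costim and Ag. Of 18 corepressor partners, which include the NuRD complex that Ikaros proteins recruit, 11 rose and 3 fell in Ag+Costim against Ag, where 26.6% of all genes were higher and 26.5% lower, with a median log2 fold change of 0.47 beside -0.05 over all genes. Ctbp2 rose by 1.79 and Sin3a by 1.62, while Chd3 fell by 1.52. In Ag against Naive 3 of the 18 were higher and 7 lower (24.2% and 22.5% of all genes). Of 8 genes of the cereblon ligase, which degrades Ikaros and Aiolos when bound by certain drugs, and of casein kinase 2, which phosphorylates Ikaros, 4 rose and 3 fell against the same 26.6% and 26.5%, led by Ddb1 at 2.83, Cul4a at 1.18 and Csnk2a1 at 1.14. The 3 that fell were Crbn (cereblon itself) at -1.03, Csnk2a2 at -0.63 and Rbx1 at -0.54.

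Of 16 tested genes described as Ikaros family targets in lymphocytes 6 rose and 8 fell in Ag+Costim against Ag (median -0.57; 26.6% of all genes higher, 26.5% lower). Tbx21, which codes for T-bet, rose by 2.02 and Cdk6, a cell cycle kinase, by 1.98, and Dntt, which codes for terminal transferase, had 0 counts in all 5 Ag+Costim libraries and a mean of 0.153 CPM in Ag. Of 17 tested cleavage and polyadenylation factors, the proteins that cut pre-mRNA and add the tail, 9 rose by edgeR's test and 8 did not pass (26.6% of all genes higher, 26.5% lower; median 0.25), led by Cpsf1 at 1.82, Cpsf2 at 1.58 and Cstf2 at 1.30. In Ag against Naive 3 of the 17 were higher and 7 lower (24.2% and 22.5% of all genes).

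Marker lists of cell types moved between the same groups (26.6% of all genes higher, 26.5% lower). Of the 6 CD8 T cell markers 5 fell in Ag+Costim against Ag, led by Cd3g at -1.71, Cd3d at -1.58 and Trac at -1.15, and of the 6 B cell markers 3 fell, Cd79b by 1.92, Cd79a by 1.48 and Ms4a1 by 1.10. All 6 erythroid markers fell, among them Hba-a2 at -4.52 and Hbb-bs at -4.48, and the 4 proliferation genes rose, led by Top2a at 2.16, Mki67 at 1.82 and Ccnb1 at 1.79. The proliferation genes summed to 22.2 and 24.5 CPM in Naive, 279 to 551 in Ag and 1343 to 1770 in Ag+Costim. Of the 6 myeloid markers 3 rose, Itgam by 2.40, Csf1r by 1.55 and Adgre1 by 1.39, whereas Lyz2, the most abundant of them, was at -0.44, Cd14 at -1.01 and Fcer1g at -0.60 without passing. Summed, the myeloid markers averaged 103.8 CPM in Ag and 100.1 CPM in Ag+Costim. Of the 4 regulatory and CD4 T cell markers Il2ra rose by 4.93 and Ctla4 fell by 1.75. Ikzf3 and Ikzf1 are also expressed in B cells. In Ag against Naive all 6 B cell markers rose, with a median log2 fold change of 6.18, where 24.2% of all genes were higher. In Ag+Costim against Naive 5 of them rose and 1 fell, where 26.9% were higher and 25.4% lower. The part of any of these cell populations in the levels of the family was not tested.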

How the data were processed

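RNA of sorted CD8+ T cells was read as single reads of poly(A) RNA after SMART-Seq v4 and Nextera XT library preparation, and the submitters' processing notes name mm10, HISAT2 2.1.0, SAMtools 1.9, StringTie 2.1.0, R 4.0.5 and DESeq2 1.30.1. The authors deposited gene and transcript counts of 12 libraries as whole numbers from StringTie, which are estimates from coverage. They also deposited FPKM values per transcript, which were summed to genes here, and percent-aligned values of each library (72.3 to 76.5 percent). Psi values, a fraction from 0 to 1, were deposited by the authors from Whippet (version not given in the sources used here) with 1 value for Ag and 1 for Ag+Costim, and are printed as percent. The authors' columns of differences and probabilities were not used. Psi columns A and B were taken as Ag and Ag+Costim from the letters in the sample titles.

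Counts were fitted with edgeR 4.0.16 (R 4.3.3, TMM scaling, filterByExpr, robust quasi-likelihood fit over all 12 libraries, Benjamini-Hochberg adjustment over all 18817 genes or 50792 transcripts, threshold 0.05). Shares were compared with exact permutation tests, whose smallest two-sided p is 0.00794 for 5 against 5 libraries and 0.0952 for 2 against 5. Alternatives were DESeq2 1.42.0, limma 3.58.1 on FPKM (pseudocount 1 or 0.1), upper-quartile scaling, no filter, and leaving out each library. Transcript models, junctions and end sequences came from GENCODE vM21. Named were the 5 genes, their transcripts past the filter, their nodes with a Psi difference above 0.05, the 3 nearest genes in pattern and the 3 most changed called genes of each list, of which 1 erythroid marker is not reported here. The members and the lists were chosen with earlier results of these data known. Measures of the end within the last exon, of exon 4, of the 60-base exon and of retained introns were added after the values were seen. The shares of single Ikzf1 transcripts were not among the planned measures. Of the 18 polyadenylation symbols 17 were matched and tested, and of the 18 target symbols 16 passed the filter. The gene fit was tested on simulated data and returned the fold changes it was given, but it missed the recovery share set for 2-fold changes, mostly at low counts. The transcript usage test made more calls on simulated data without changes than its threshold allows. Simes' combination was added after that was seen and made fewer, yet also passed its limit. The labels do not say whether libraries of a group came from separate mice, and the study's methods call them biological replicates. If several shared a source, p-values measure the spread between libraries only.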

Additional observations from a re-analysis of the deposited data

Results flagged for a closer look

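In 6 of 44 sets of 5 libraries, 1 library stood apart from the others by Dixon's test at the 95% level, which chance does in about 1 of 20 sets. Ikzf1 was at 232 CPM in Ag+Costim 2, with the other Ag+Costim libraries at 192 to 203 CPM. Ikzf5 was at 13.7 CPM in Ag 4, with the other Ag libraries at 10.8 to 11.2 CPM. In Ag 3 the most distal end took 61.7% of the counts of the Ikzf1 last-exon transcripts, with the others at 90.3% to 94.9%, and the 60-base exon was included in 34.6%, with the others at 3.36% to 7.08%. Both values of Ag 3 come from Ikzf1-203, which was at 28.1 CPM there and at 2.49 to 6.91 CPM in the rest of Ag. Ikzf4 made up 0.279% of the family in Ag 4, with the other Ag libraries at 0.607% to 0.718%, and Ikzf5 made up 3.27% in Ag+Costim 4, with the others at 4.47% to 4.88%. Ag 4 had the fewest counts (24006053) and the highest summed erythroid markers (6379 CPM), and the part of either in its values was not tested.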

How the results depend on the processing

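The results were recomputed under 1911 combinations of result and alternative, of which 1783 were labelled as unchanged. For tested results this means the same direction and side of the threshold. Numbers of calls or nodes have neither and were labelled by how far they moved. The causes of the changes below were not tested unless named. Without 1 library at a time, the genes called in Ag against Naive numbered 5713 to 9569 (8792 with all), the fewest without Naive 2. The transcripts called numbered 3368 to 9795 in Ag against Naive (13145 with DESeq2) and 5372 to 12425 in Ag+Costim against Naive, the fewest without Naive 2, where 1 Naive library remains and is assumed to vary like the other groups. Usage calls numbered 788 to 2042 in Ag against Naive and 1073 to 2598 in Ag+Costim against Naive without 1 library at a time, and 578, 850 and 426 by Simes' combination in Ag against Naive, Ag+Costim against Ag and Ag+Costim against Naive.

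Ikzf4 passed in Ag against Naive on log2(FPKM + 1), at -0.27 with or without a filter, and Ikzf1 in Ag+Costim against Naive at -0.54 (also without a filter) and -0.55 with a pseudocount of 0.1. Ikzf3 in Ag+Costim against Ag was -0.12 with upper-quartile scaling, -0.0092 on log2(FPKM + 1) with or without a filter, -0.0096 with a pseudocount of 0.1 and -0.086 to 0.22 without 1 library. Ikzf5 there missed the threshold with upper-quartile scaling (0.27) and on unfiltered FPKM (0.33). The most distal share of Ikzf3 in Ag+Costim against Ag was 5.44 points per length (exact permutation p = 0.0873) and 2.49 to 5.36 without 1 library, the lowest without Ag 4, and that of Ikzf2 6.23 to 10.1 points. With all libraries that of Ikzf2 was 8.11 points with overlap (exact permutation p = 0.0317, adjusted p = 0.0882), and per length it passed without overlap (6.19 points, exact permutation p = 0.00794, adjusted p = 0.0283). It was -1.50 to 0.27 in Ag against Naive, and that of Ikzf5 was -0.52 per length and -0.54 to 1.58 without 1 library in Ag against Naive, -0.31 to 0.37 in Ag+Costim against Ag and -0.48 to 1.65 in Ag+Costim against Naive. The family share of Ikzf3 differed by -5.69 points on FPKM and that of Ikzf5 by -0.12 to 0.39 without 1 library. Past 10 points of Psi lay 2 member nodes.

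Results that missed the threshold and changed sign were, without 1 library at a time, Ikzf1-202 (-0.38 to 0.022) and Ikzf5-207 (-0.041 to 0.94) in Ag against Naive, Ikzf5-204 (-0.13 to 0.41) in Ag+Costim against Ag, and in Ag+Costim against Naive Ikzf1-201 (-0.28 to 0.15), Ikzf1-203 (-0.45 to 0.055), Ikzf1-206 (-0.053 to 0.86), Ikzf5-201 (-0.082 to 0.082), Ikzf5-207 (-0.41 to 0.58) and the 60-base exon (-6.84 to 0.46 points). With DESeq2 Ikzf1-201, Ikzf5-201 and Ikzf5-207 were 0.028, 0.046 and 0.035 there, and the retained-intron share of Ikzf2 in Ag against Naive was -0.95 points per length and -0.60 to 1.39 without 1 library.

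A replicate block on the numbers in the labels gave 8632, 9353 and 9480 genes in the 3 comparisons (those with Naive on replicates 1 and 2 alone) and changed no member's call. Deviations of same-numbered Ag and Ag+Costim libraries correlated at 0.0159 to 0.0951, with 3 of 5 highest for their own number, so the numbers were not treated as pairs. Depth limits Ikzf4 most, at 0.43 CPM in Ag+Costim, and 2 Naive libraries limit every exact test against Naive.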
